A study of Mus musculus with 4 samples.

Results

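The Rtl1-antisense microRNAs are miR-431, miR-433, miR-127, miR-434 and miR-136, small RNAs cut from a transcript that runs opposite to the imprinted gene Rtl1. They were chosen by name, whatever their values: every assay of the TaqMan panel read in the 4 samples whose name, without species prefix, arm or star, is one of these 5. The rule found 6 of the 375 microRNA assays, namely mmu-miR-431, mmu-miR-433, mmu-miR-127, mmu-miR-434-5p, mmu-miR-434-3p and mmu-miR-136, all of them mouse assays. Total RNA came from 4 samples of C57BL/6 mouse embryos, taken whole at stage E18.5, of which 2 were ER-alpha KO (lacking the nuclear estrogen receptor encoded by Esr1) and 2 were wild-type. The labels name neither the knockout allele nor how many embryos went into a sample, and p-values here cover the spread of these samples alone, which may be partly technical. A whole embryo mixes all tissues, so fewer cells of a type and less RNA per cell cannot be told apart in these values.

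The 5 microRNAs lie in the Dlk1-Dio3 imprinted domain, in which the maternal chromosome expresses the noncoding RNAs (Meg3, the Rtl1 antisense transcript, Rian and Mirg, with the microRNAs they carry) and the paternal chromosome expresses the protein-coding genes Dlk1, Rtl1 and Dio3. Rtl1 is a gene derived from a retrotransposon that the mouse placenta needs for its fetal capillaries. Because the microRNAs come from its opposite strand, they match the Rtl1 messenger along their whole length and are known in mouse to direct its cleavage, so that the maternal transcript restrains the paternal gene.

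All 5 hairpins stand on chromosome 12, plus strand, in RefSeq's annotation of GRCm38.p6, inside the annotated Rtl1 gene (chr12:109564900-109604418). In the direction of the antisense transcript, Mir431 comes first (chr12:109590447-109590537), followed by Mir433 (chr12:109591715-109591838), Mir127 (chr12:109592846-109592915), Mir434 (chr12:109594506-109594599) and Mir136 (chr12:109595327-109595388). Together they span 4.942 kb. The Mir136 hairpin is overlapped on the minus strand by that of Mir3071 (chr12:109595318-109595397), and the larger cluster from miR-379 to miR-410 starts 113.671 kb farther along.

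The mature microRNAs are shown because the assays read these short RNAs and not the transcript. Sequences are RefSeq's, written 5′ to 3′ with the seed (bases 2 to 8) in capitals. The 2 assays of miR-434 name their arm. The other 4 assay names give none, and the arm shown for them is the one that the older registry name without an arm stood for, which is background knowledge and not in the files.
miR-431-5p: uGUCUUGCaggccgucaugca
miR-433-3p: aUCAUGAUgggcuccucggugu
miR-127-3p: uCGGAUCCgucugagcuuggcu
miR-434-5p: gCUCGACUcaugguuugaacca
miR-434-3p: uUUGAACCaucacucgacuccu
miR-136-5p: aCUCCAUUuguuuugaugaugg
The 6 seeds all differ from each other, and 0 other mature mouse microRNAs in the RefSeq table carry any of them. The microRNAs therefore share a transcript and not a seed.

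Mir434 is the hairpin read on both arms. It is printed with the 5p arm and then the 3p arm in capitals.
Mir434 hairpin: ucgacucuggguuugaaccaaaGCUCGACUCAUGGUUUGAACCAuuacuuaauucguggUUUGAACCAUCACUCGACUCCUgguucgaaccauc
Its arms repeat each other in part. The longest run of bases they share is 9 long, at the end of the 5p arm and the start of the 3p arm, here in capitals.
miR-434-5p: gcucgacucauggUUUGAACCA
miR-434-3p: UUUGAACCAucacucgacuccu
The arms of Mir431 share a run of 10 bases, while those of Mir127, Mir433 and Mir136 share at most 5. Whether one arm is read in part by the assay of the other was not tested.

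Each assay gives a threshold cycle (Ct), the PCR cycle at which its signal crosses a threshold. More RNA gives an earlier (lower) Ct, by about 1 cycle per doubling. Wells at a Ct of 35 or lower were taken as detected, and between 254 and 290 microRNAs were detected per sample, 229 of them in all 4. All 6 Rtl1-antisense assays were among these 229, and all 6 also lay below a Ct of 32 in each sample, so none was close to the detection limit. The 15 assays for microRNAs of liver, brain, muscle, endothelium, blood, skin, epithelia, pancreas and cartilage were detected in all 4 samples. Of 9 assays for microRNAs of the early embryo, 0 were detected in all 4 samples and 4 in none. mmu-miR-291a-3p, mmu-miR-292-3p, mmu-miR-293 and mmu-miR-295 were each detected in 3 samples, and mmu-miR-302c in 1, so these markers were not all undetected. Outside wild-type replicate 1 these detections lay at a Ct of 32.2 to 34.99, toward the limit of 35. The earlier values, 30.4 for mmu-miR-293 and 29.4 for mmu-miR-302c, were both of wild-type replicate 1. Over the whole panel, 229 of 375 microRNA assays were detected in all 4. Wild-type replicate 1 stood apart. It had the 290 detected microRNAs, against 254 to 260 in the other samples, although its median Ct over the 229 was the latest (29.2). Its values other than U6 carry a shared constant of 0.273 cycles, and with it taken off, 90.0% of the wells that amplified read less than 0.1 cycle from a whole number, against 21.0% and 22.6% in ER-alpha KO replicates 1 and 2 and 26.5% in wild-type replicate 2. All 6 Rtl1-antisense readings of wild-type replicate 1 were of this kind, against 2 and 4 of 6 in the ER-alpha KO replicates and 1 of 6 in wild-type replicate 2, so its readings resolve these assays to about a whole cycle. Results are therefore given with and without that sample.

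miR-431, whose hairpin is the first of the 5, was the earliest of the 6 assays in every sample. Its Ct was 21.9 and 22.1 in ER-alpha KO replicates 1 and 2, against 24.3 and 22.2 in wild-type replicates 1 and 2. Both knockout samples came up before both wild-type samples, by little against wild-type replicate 2. Among the 229 assays it ranked 8th and 9th in the knockout samples, and 12th in both wild-type samples.

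miR-127, known in mouse to repress Rtl1 in the placenta, came next. Its Ct was 23.03 and 23.00 in the ER-alpha KO samples, against 25.3 and 22.5 in wild-type replicates 1 and 2. The knockout samples differed by 0.031 cycles and lay between the wild-type samples, which were 2.78 cycles apart.

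miR-136 and the 3p arm of miR-434 came up close together. The Ct of mmu-miR-136 was 24.8 and 24.9 in the ER-alpha KO samples, against 26.2 and 24.9 in wild-type replicates 1 and 2. That of mmu-miR-434-3p was 25.5 and 24.3 in the knockout samples, against 27.3 and 24.3 in the wild-type samples. mmu-miR-434-3p was the one assay of the 6 whose knockout samples were over 1 cycle apart (1.18). It stood later than mmu-miR-136 in replicate 1 of both genotypes and earlier in replicate 2 of both, so these neighbours had no fixed order.

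The latest were mmu-miR-433 and the 5p arm of miR-434. The Ct of mmu-miR-433 was 27.5 and 27.1 in the ER-alpha KO samples, against 29.2 and 26.8 in wild-type replicates 1 and 2. That of mmu-miR-434-5p was 28.2 and 28.3 in the knockout samples, against 29.3 and 28.1 in the wild-type samples. The assays kept the order of miR-431, miR-127, the pair of miR-136 and miR-434-3p, then the 2 latest in all 4 samples. Of these 2, miR-433 came before miR-434-5p, except that wild-type replicate 1 gives no order for them. Its readings of the 2 were 0.030 cycles apart and resolve only to about a whole cycle. Assays differ in efficiency, which is not known here, so this order is one of assays, and it does not follow the place of the hairpins on the transcript.

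**Figure D1:**
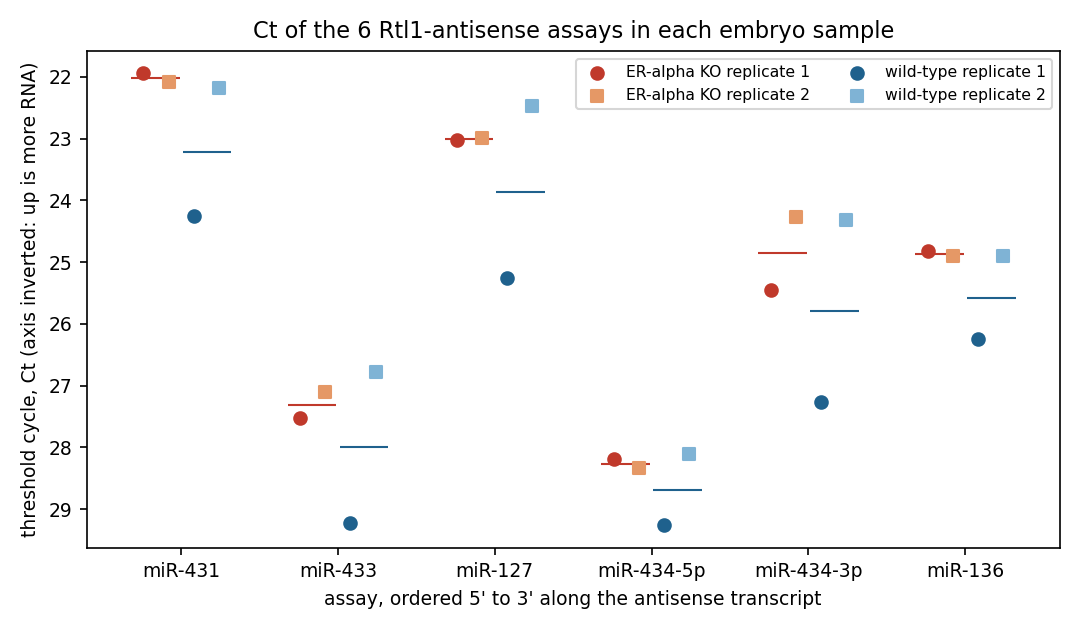
Ct of each Rtl1-antisense assay in the 4 samples, on an inverted axis, with red for ER-alpha KO and blue for wild-type and a line at each group's mean (n = 2). Wild-type replicate 1 is the latest sample for all 6 assays, while the other 3 samples span between 0.0848 cycles (miR-136) and 1.18 cycles (miR-434-3p).

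The later Ct of wild-type replicate 1 was not particular to these assays. It came up after wild-type replicate 2 by 1.15 to 2.94 cycles for the 6, with a median of 2.27, and by a median of 1.84 over all 229 microRNAs, with quartiles at 1.16 and 2.28.

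To compare the genotypes, the relative level of an assay was taken as the median Ct of the 229 microRNAs in that sample minus its own Ct, in log2 units. On this scale mmu-miR-431 stood at 6.25 and 5.75 in ER-alpha KO replicates 1 and 2, against 4.98 and 5.18 in wild-type replicates 1 and 2. The means were 6.00 ± 0.36 in knockout and 5.08 ± 0.14 in wild-type embryos (SD, n = 2 each), a log2 fold change of 0.92 with a standard error of 0.64, or 1.89-fold with a 95% interval of 0.795 to 4.51. The knockout samples lay above the wild-type samples, and the assay was 12th of 229 from the top by fold change, but it did not pass the test across all microRNAs (limma adjusted p = 0.939).

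mmu-miR-433 was the other assay whose groups did not overlap. Its levels were 0.67 and 0.73 in ER-alpha KO, against 0.005 and 0.59 in wild-type samples, with a log2 fold change of 0.40. The knockout samples lay above wild-type replicate 2 by less than the difference between the wild-type samples. Both knockout samples above both wild-type samples were seen for 33.2% of all tested microRNAs, and for 2 of the 6 Rtl1-antisense assays, which is the same share. The opposite, both knockout samples lower, was seen for 6.11% of all and 0 of the 6, and groups that did not overlap in either direction for 39.3% of all and 2 of the 6.

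The remaining 4 assays overlapped between the genotypes. Levels of mmu-miR-127 were 5.16 and 4.83 in ER-alpha KO, against 3.98 and 4.89 in wild-type samples (log2 fold change 0.56). Those of mmu-miR-434-3p were 2.74 and 3.56 in knockout, against 1.98 and 3.04 in wild-type samples (0.64). In both, wild-type replicate 1 lay below the other 3 samples, and wild-type replicate 2 lay between the knockout samples.

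Levels of mmu-miR-136 were 3.37 and 2.92 in ER-alpha KO, against 2.99 and 2.46 in wild-type samples (log2 fold change 0.42). Those of mmu-miR-434-5p were 0 and -0.51 in knockout, against -0.025 and -0.74 in wild-type samples (0.13). For both, replicate 1 was above replicate 2 in each genotype.

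By limma's moderated test with Benjamini-Hochberg adjustment over the 229 microRNAs, 0 of the 6 Rtl1-antisense assays passed an adjusted p of 0.05, and 0 of all 229 did (0.0%). At an unadjusted p under 0.05 there were 10 of the 229 (4.37%) and 0 of the 6, whose smallest unadjusted limma p was 0.149, for mmu-miR-431. All assays share a standard error of 0.64 log2 units in this fit, so the ends of the intervals assume that all assays vary alike. The SD of the ER-alpha KO levels was 0.038 for mmu-miR-433 and 0.58 for mmu-miR-434-3p. The 95% intervals of the 6 fold changes all included 0, with lower ends between 0.459-fold and 0.795-fold and upper ends between 2.60-fold and 4.51-fold. A change of 2-fold in either direction lies within the interval of mmu-miR-434-5p, and a 2-fold increase lies within each of the 6. With 2 samples per group, an increase of that size was thus not excluded for any of the 6.

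**Figure D2:**
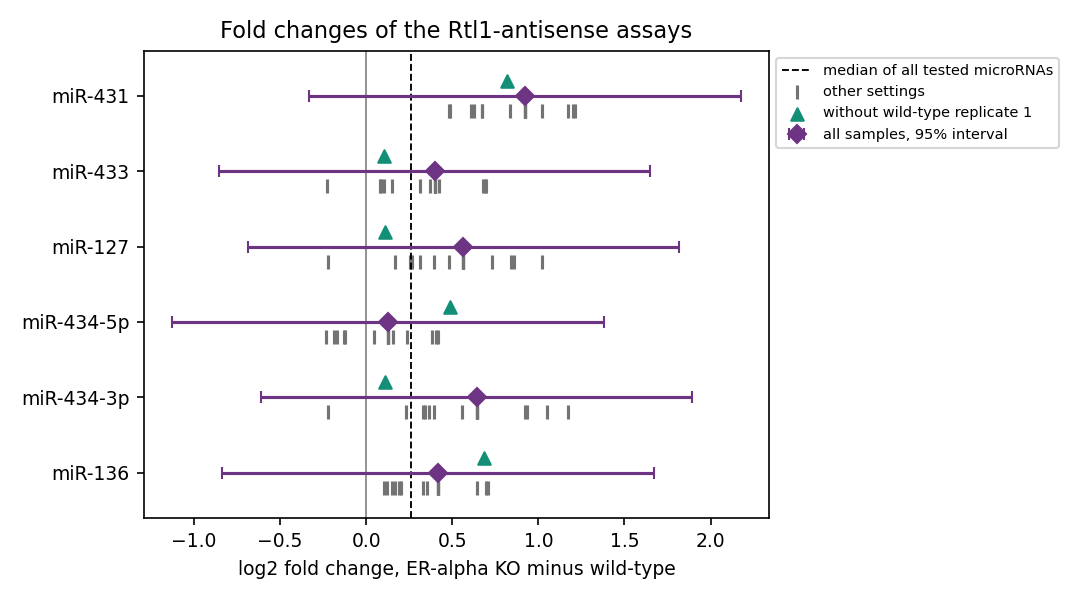
Log2 fold change of each Rtl1-antisense assay, ER-alpha KO minus wild-type, with its 95% interval (diamonds), without wild-type replicate 1 (triangles) and under every other setting tried (ticks). Each interval includes 0, and miR-431 and miR-136 are the assays whose values stay above 0 under every setting shown.

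The 6 fold changes had a median of 0.49, while the median of all 229 was 0.26, and 5 of the 6 lay above that value. Set against the median of all microRNAs, the differences were 0.66 for mmu-miR-431, 0.38 for mmu-miR-434-3p, 0.30 for mmu-miR-127, 0.15 for mmu-miR-136, 0.14 for mmu-miR-433 and -0.14 for mmu-miR-434-5p. The first of these is close to 1 standard error and the others are below it.

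The distance of the group from the rest depended on single samples of both genotypes. With all 4 samples the median of the 6 stood 0.23 above that of all microRNAs. With the same 229 microRNAs it stood -0.0027 from it without wild-type replicate 1 and -0.0042 from it without ER-alpha KO replicate 2, so that the group no longer stood above the rest, and 0.30 above it without ER-alpha KO replicate 1 and 0.64 above it without wild-type replicate 2. Without wild-type replicate 1 the median of the 6 was 0.30, as was that of all microRNAs. Relative to the median of all, mmu-miR-431 (0.52) and mmu-miR-136 (0.38) then lay above, mmu-miR-434-5p lay above at 0.19, and mmu-miR-433, mmu-miR-127 and mmu-miR-434-3p lay below at -0.20, -0.19 and -0.19. The log2 fold changes themselves were 0.82 for mmu-miR-431, 0.68 for mmu-miR-136, 0.49 for mmu-miR-434-5p, 0.10 for mmu-miR-433 and 0.11 for both mmu-miR-127 and mmu-miR-434-3p. For mmu-miR-136 the Ct itself spanned 0.0848 cycles over these 3 samples. When the filter on low values was applied again to the 3 samples left, the centre was taken from 241 microRNAs. The log2 fold changes were then 0.49 for mmu-miR-431, 0.35 for mmu-miR-136 and 0.16 for mmu-miR-434-5p. Those of mmu-miR-433, mmu-miR-127 and mmu-miR-434-3p were -0.23, -0.22 and -0.22. The distances of all 6 from the median of all microRNAs were as before, so these shifts came with the centre. The group as a whole is given by its median per sample. It was 3.06 and 3.24 in ER-alpha KO, against 2.48 and 2.75 in wild-type replicates 1 and 2 (3.15 ± 0.13 and 2.62 ± 0.19, SD, n = 2 each). The knockout samples were higher than both wild-type samples, but with the small-RNA controls as the scale the groups overlapped (-0.84 and -0.14 in knockout, against -2.15 and -0.45 in wild-type).

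**Figure D3:**
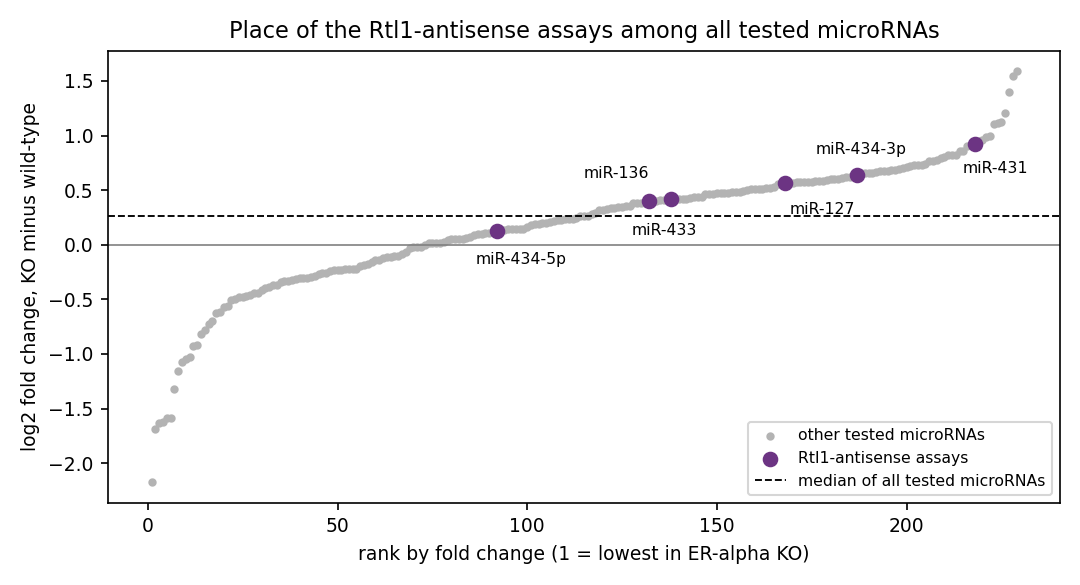
Log2 fold changes of the 229 tested microRNAs in rank order, with the 6 Rtl1-antisense assays in purple and the median of all microRNAs (0.26) as a dashed line. The 6 lie in the middle and upper part of the curve, miR-434-5p below the dashed line and miR-431 at 12th from the top.

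The cycles between any 2 assays within a sample do not depend on how samples are scaled. mmu-miR-127 came 1.09 and 0.92 cycles after mmu-miR-431 in ER-alpha KO replicates 1 and 2, against 1.00 and 0.29 cycles in wild-type replicates 1 and 2. mmu-miR-433 came 5.58 and 5.02 cycles after it in knockout, against 4.97 and 4.58 in wild-type samples. mmu-miR-434-5p came 6.25 and 6.26 cycles after it in knockout, against 5.0 and 5.92 in wild-type samples. The spacing of miR-433 and of miR-434-5p from miR-431 was thus wider in both knockout samples than in both wild-type samples. For miR-433 the nearest values were 5.02 in ER-alpha KO replicate 2 and 4.97 in wild-type replicate 1. The readings of wild-type replicate 1 resolve only to about a whole cycle, so that separation lies below their resolution. The spacing of miR-127 overlapped.

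mmu-miR-136 followed mmu-miR-431 by 2.88 and 2.83 cycles in ER-alpha KO, against 1.98 and 2.72 in wild-type samples, again without overlap. mmu-miR-434-3p followed it by 3.51 and 2.19 cycles in knockout, against 3.0 and 2.14 in wild-type samples. Over all 15 pairs of these assays, the groups did not overlap in 4, the 3 spacings from miR-431 above and miR-136 against miR-434-5p. Over all pairs of the 229 assays they did not overlap in 34.4%, so 4 of 15 is no more than the share among all pairs, and pairs that share an assay are not independent. Differences between the genotype means ranged from 0.018 to 0.794 cycles in size. Without wild-type replicate 1, the difference of knockout minus wild-type was 0.33 instead of 0.79 cycles for miR-434-5p after miR-431, 0.14 instead of 0.51 for miR-136 after it and 0.72 instead of 0.52 for miR-433 after it, while it was 0.71 for both miR-127 (0.36 with it) and miR-434-3p (0.28 with it). With 2 samples per group the smallest two-sided p of an exact permutation test is 0.333, so no pair could pass a threshold of 0.05.

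**Figure D4:**
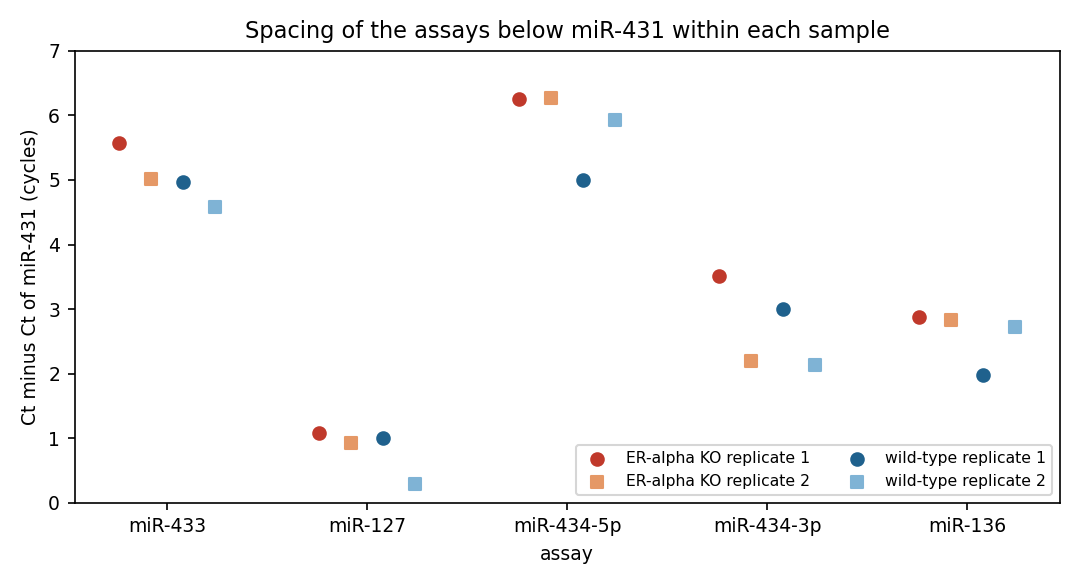
Cycles by which each assay follows miR-431 in the same sample (red, ER-alpha KO; blue, wild-type). For miR-433, miR-434-5p and miR-136 both knockout samples lie above both wild-type samples, and for miR-127 and miR-434-3p the genotypes overlap. For miR-433 the margin over wild-type replicate 1 is below the resolution of that sample, about a whole cycle.

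The spacing of the arms of miR-434 spanned 2.07 cycles over the 4 samples, the widest of the 15 pairs, and 1.33 cycles without wild-type replicate 1, where miR-434-3p after miR-431 spanned 1.37. The 5p arm came up 2.74 and 4.07 cycles after the 3p arm in ER-alpha KO replicates 1 and 2, against 2.00 and 3.79 cycles in wild-type replicates 1 and 2. The gap was wider in replicate 2 than in replicate 1 of both genotypes, and the means, 3.41 ± 0.94 in knockout and 2.89 ± 1.26 in wild-type (SD, n = 2 each), differed by less than that spread (exact permutation test, two-sided p = 0.667). Without wild-type replicate 1 the gap in wild-type (3.79) was above the knockout mean (3.41) but lay between the knockout samples. Other hairpins of the domain with both arms tested were steadier. For miR-337, upstream of Rtl1, the 5p arm stood 0.028 and -0.26 cycles from the 3p arm in knockout, against -0.022 and 0.36 in wild-type samples. For miR-409, of the cluster from miR-379 to miR-410, it came 7.81 and 8.21 cycles after the 3p arm in knockout, against 7.02 and 7.69 in wild-type samples. These values were not tested against each other.

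The rest of the imprinted domain held 47 further microRNA assays on the panel, of which 32 were tested. Of these 32, 0 passed the limma test, 14 had a fold change above the median of all microRNAs and 18 below, and their median was 0.10. In 12 of the 32 both knockout samples lay above both wild-type samples, and in 1 both lay below, where 33.2% and 6.11% of all tested microRNAs did so. The 26 tested assays of the cluster from miR-379 to miR-410, a long array of maternally expressed microRNAs, had a median of 0.14, the 5 tested assays upstream of Rtl1 one of 0.10, and mmu-miR-370, near Rian, had -0.26. Without wild-type replicate 1 the median of the 32 was 0.39, above that of the Rtl1-antisense assays (0.30), so the order of the 2 lists depended on that sample. The difference between the lists was not tested.

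Among those 32, the largest fold changes in size were those of mmu-miR-539 (1.21), mmu-miR-493 (1.00), mmu-miR-665 (-0.78) and mmu-miR-487b (0.69), each with a limma adjusted p of 0.939. Without wild-type replicate 1 they were 0.51, 1.03, -0.082 and 0.49. Levels of mmu-miR-493, whose hairpin lies upstream of Mir431, were -1.93 and -2.12 in ER-alpha KO, against -2.99 and -3.05 in wild-type samples. Both of its knockout samples lay higher, and it was the one of these 4 whose value moved little without that sample. Its value was 0.70 when the filter was applied again as above, where the median of all microRNAs moved from 0.30 to -0.031.

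When scaled to the median of the 26 cluster assays instead, the Rtl1-antisense median was 1.77 and 2.70 in ER-alpha KO, against 1.504 and 2.40 in wild-type replicates 1 and 2. The groups overlapped, and replicate 2 was higher than replicate 1 in both genotypes.

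**Figure D5:**
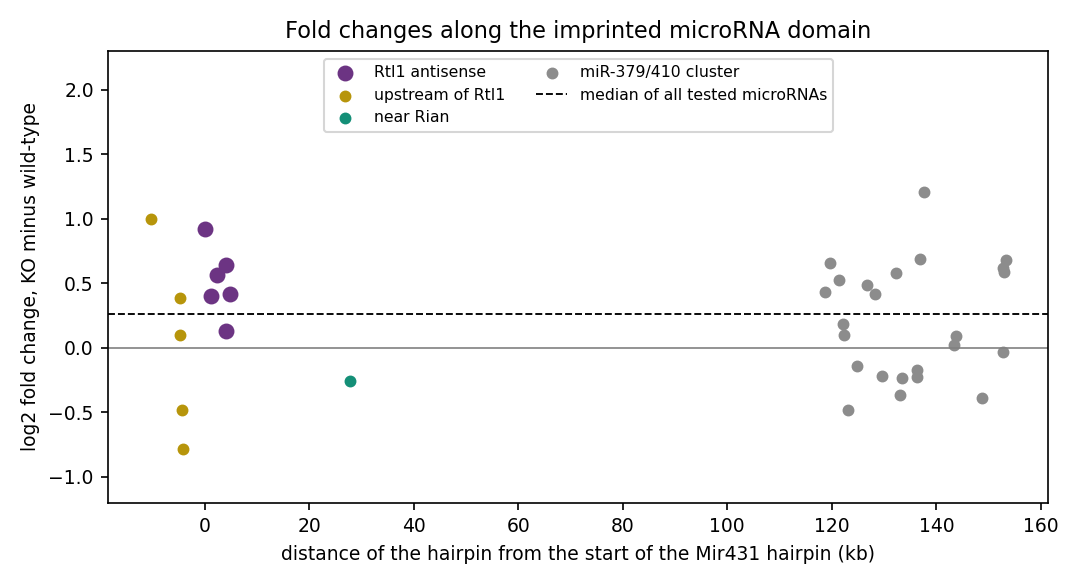
Log2 fold change, ER-alpha KO minus wild-type, of the 36 tested assays of the domain with a hairpin position in RefSeq, against the distance from the start of the Mir431 hairpin. The Rtl1-antisense assays (purple) lie between 0.13 and 0.92, within the range of the cluster from miR-379 to miR-410 (grey).

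The assays with the pattern most like the Rtl1-antisense mean over the 4 samples were found outside the domain. Likeness was the root mean square difference over the 4 samples after each assay was set to a mean of 0, and it was 0.014 log2 units for mmu-miR-218, 0.028 for mmu-miR-365, 0.0355 for mmu-miR-30c, 0.040 for mmu-miR-182 and 0.068 for mmu-miR-195. The Rtl1-antisense assays themselves stood at 0.15 (mmu-miR-433) to 0.45 (mmu-miR-434-3p) from their own mean. The assays outside the domain were picked for the smallest values, whereas the Rtl1-antisense assays were chosen by name, so the 2 sets of values are not comparable. Whether the Rtl1-antisense assays lay closer to their mean than a typical microRNA was not tested. For mmu-miR-218, levels were 3.69 and 3.55 in ER-alpha KO, against 3.01 and 3.25 in wild-type samples, and its log2 fold change was 0.49. With 4 samples such likeness is a description of these values.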

How the data were processed

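TaqMan assays were run on total RNA (TRIzol) over 40 cycles on an Applied Biosystems 7900HT, per the labels' protocols. Per the file headers, the authors deposited Ct, from 1 well per assay and 4 for U6; how they set threshold and baseline, and whether they normalized, is not given in the sources used here. Undetermined wells, and 39 values above cycle 40 in wild-type replicate 1, were taken as not amplified, and 1141 lines without an assay in ER-alpha KO replicate 2 were skipped. The 229 microRNAs at a Ct of 35 or lower in all 4 samples were centred per sample on their median Ct and compared with limma 3.58.1 (R 4.3.3; lmFit, eBayes, group as the only term), which was tested on simulated data. Tables used Python 3.11.15, pandas 2.3.3 and scipy 1.17.1, and plots matplotlib 3.10.9. Sequences and positions are RefSeq's (GRCm38.p6), matched by name. For assays whose name gives no arm, the arm was taken from background knowledge, as stated with the sequences. The members and the lists (Dlk1-Dio3 microRNAs, tissue and early-embryo markers) were chosen with earlier results of these data known. Besides the members, the text names the 5 assays most like their mean, the 4 domain assays with the largest absolute fold change, and controls or markers.

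Only 2 samples per group limit the precision. The control assays, from lowest to highest difference snoRNA202, snoRNA135, MammU6, U87 and Y1, differed in Ct by -0.28 to 0.58 cycles (ER-alpha KO minus wild-type). Within a genotype they differed by more. Wild-type replicate 1 minus replicate 2 ran from -1.54 (U87) to 1.81 cycles (snoRNA202), and U87 was 26.1 and 28.3 in ER-alpha KO replicates 1 and 2.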

Additional observations from a re-analysis of the deposited data

How the results depend on the processing

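In the 11 alternatives that kept all samples, 0 of the 6 Rtl1-antisense assays passed (smallest limma adjusted p 0.627). In 4 of the 11 the fold changes equal the reported ones by construction. In the other 7, 39 of 42 were above 0, and centres that move all assays alike leave their order as it was. The 3 below 0 were of mmu-miR-434-5p, with the average profile as centre (-0.18), with the cluster from miR-379 to miR-410 as centre (-0.12) and with detection at a Ct of 32 (-0.17). With 1 sample left out, 0 of the 6 passed either, the lone sample being assumed to vary like the other group. Then mmu-miR-434-5p was -0.23 without wild-type replicate 2 and -0.13 without ER-alpha KO replicate 1. The second way to leave out wild-type replicate 1, with the filter applied again, was chosen after seeing the data. It gave -0.23 for mmu-miR-433, -0.22 for mmu-miR-127 and -0.22 for mmu-miR-434-3p. It gave 0.49 for mmu-miR-431, 0.35 for mmu-miR-136 and 0.16 for mmu-miR-434-5p, with a median of the 6 of -0.034. The median of the 6 (0.49) was 0.77 scaled to the controls, 0.78 with no normalization, 0.22 with quantile normalization, 0.18 on the average profile, 0.24 on the cluster and 0.19 at a Ct of 32, and from -0.034 to 0.86 over the 5 fits with 1 sample left out (0.30 to 0.86 with the same 229 microRNAs). Much of this is a shift of all microRNAs, whose median was 0.54, 0.55, 0.045, -0.048, 0.014 and 0.051 in the first 6 of these. Over all microRNAs, counts past the threshold ranged from 0 to 13 with 1 sample left out (13 without wild-type replicate 2, 1 without wild-type replicate 1). The replicate number as a replicate block called 1 microRNA, which was none of the 6. The deviations of same-numbered samples correlated (r = 0.37 across assays, which are not independent replicates); the labels do not say that a number marks anything shared, and 2 pairs are too few to tell, so no pairing was assumed.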
